A study of Mus musculus with 6 samples.

Results

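Solute carriers (SLC) are membrane proteins that move ions, metals, nutrients, metabolites and nucleotide sugars across the plasma membrane and across the membranes of organelles. Of 371 protein-coding mouse genes whose symbol starts with Slc and a digit, 45 were left out (Slc45a4 and the glucose, amino acid and monocarboxylate families Slc2, Slc3, Slc7 and Slc16), which left 326 candidates in 45 families. A candidate was kept when its mean over the 6 libraries of the series was at least 5 CPM (read counts scaled to a common effective library size). That gave 142 genes in 37 families out of 41214 gene identifiers in the table. Members were thus chosen by their mean level, which is given as a description with no test, while no comparison between groups was part of the rule. A member low in some groups could still enter through a group where it is high. The rule removes most but not all carriers of sugars and amino acids: 23 members belong to other such families (Slc1, Slc5, Slc6, Slc36, Slc37, Slc38, Slc43 and Slc50) and are described as a group of their own, beside 119 others. A further limit of the symbols is that 3 members carry a carrier's name without being one. Slc9a3r1 and Slc9a3r2 are PDZ scaffold proteins that bind the sodium-proton exchanger Slc9a3, and Slc4a1ap is an adapter protein. The members nearest the threshold were Slc44a5, with a mean of 5.01 CPM, and Slc41a2, with 5.27 CPM. Just below it lay Slc25a14, with 4.998 CPM, and Slc35g1, with 4.36 CPM. Of the 184 candidates below 5 CPM, 92 had 0 counts in every library.

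Some carriers work in opposed sets, as those of zinc do. Zinc is lowered in the cytosol by the Slc30 family, which pumps it out of the cell or into vesicles, and raised by the Slc39 family, which lets it in from outside or out of organelles. The Slc25 family joins the mitochondrial matrix to the cytosol, and the Slc35 family carries activated sugars into the endoplasmic reticulum and Golgi, where they are built into glycoproteins and proteoglycans. Endothelial cells stand between blood and tissue, and metals, nucleosides, vitamins and choline pass through their plasma membrane carriers.

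The RNA came from endothelial cells of embryonic mouse hearts. All 3 groups carried the transgene Pdgfb-iCreERT2-IRES-EGFP, in which Pdgfb regulatory sequence drives a tamoxifen-dependent Cre and a green fluorescent protein. All received tamoxifen at E13.5 (embryonic day) and gave hearts at E14.5, from which cells positive for CD31 and for green fluorescence were sorted. The group wt (genotype WT) came from crosses of the Cre line with wildtype females, het (Dll4+/-) from Dll4 flox/flox Cre mice with wildtype, and KO (Dll4-/-) from the same mice with Dll4 flox/flox females. Dll4 encodes a Notch ligand of arterial and sprouting endothelium. Each group had 2 libraries, and the labels speak of several litters of independent females but do not say whether a library is 1 embryo, a pool or 1 litter, so that p-values measure only the spread between these libraries, which may be technical. Totals ran from 1537908 to 6501798 counts, highest in the 2 KO libraries.

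Dll4 itself was at 195 and 182 CPM in wt, 80.9 and 85.5 CPM in het and 19.3 and 13.7 CPM in KO, in the order of the labels. Of the 10 endothelial markers, none was at 0 in any group, and their summed level was 6537 to 6764 CPM in wt, 6059 to 6506 CPM in het and 5570 to 5651 CPM in KO. Cdh5 set that direction, since it fell in KO (-2.29 ± 0.09 SE, adjusted p = 1.82e-13), and the other 9 summed to 4616 to 4791 CPM in wt, 4258 to 4604 CPM in het and 5190 to 5232 CPM in KO. Among these Erg (-1.26) and Emcn (-0.40) also fell, and Tek (0.77) and Kdr (0.44) rose. Summed cardiomyocyte markers lay at 65.6 to 74.6 CPM in wt, 143 to 170 CPM in het and 32.4 to 38.6 CPM in KO (10 genes, Ryr2 at 0 in wt and KO). The 10 mural and fibroblast markers summed to 78.0 to 130 CPM, 187 to 254 CPM and 55.4 to 107 CPM in the same order, and the 8 macrophage markers to 49.9 to 115, 97.7 to 291 and 31.4 to 64.7 CPM. The 9 erythroid markers summed to 145 to 415, 118 to 377 and 181 to 233 CPM, and the 6 epicardial markers to 107 to 108, 106 to 121 and 73.0 to 76.7 CPM. Most of the epicardial sum was Wt1 alone, at 105 and 95.8 CPM in wt, 92.9 and 119 CPM in het and 68.7 and 74.9 CPM in KO. These sums move with the groups, and their part in the results below was not tested. A single gene, Lars2, took 16.3% to 17.1% of all counts in the wt and het libraries against 0.0572% and 0.0611% in KO. The 7SL/7SK genes took 0.138% to 0.240% in wt and het against 0.00134% and 0.00239% in KO. Mitochondrial genes took 2.50% to 6.04% against 1.13% and 0.971%. Both KO libraries thus differed from all wt and het libraries in make-up. In every comparison with KO, genotype and library preparation cannot be told apart. The members together took 0.676% to 0.726% of counts in wt and het and 0.958% and 0.939% in KO, but after scaling their summed level was nearly level, at 7374 to 7803 CPM in wt and het and 8058 and 7914 CPM in KO. Without Lars2, mitochondrial genes and 7SL/7SK genes in the table, all 43 calls described next were kept. Dropping them hardly moved the scaling, with a median over all genes in KO against wt of -0.01 against -0.02. The kept calls therefore say nothing on how the libraries were made.

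In KO against wt, 32 of the 142 members rose and 11 fell at an adjusted p under 0.05. Over all genes tested, 14.7% were called higher and 17.3% lower (32% in either direction), against 22.5% and 7.75% of the members (30.3% in either direction). Among the 10084 genes tested with a mean of at least 5 CPM, as the members have, the share called was 33.8% (15.7% higher, 18.1% lower). The share of members called was thus near the background, and the direction leaned upward, with a median log2 fold change of 0.14 against -0.02 over all genes tested. In bulk RNA, fewer cells of a type and less RNA per cell cannot be told apart, and every CPM is a share of a library. Both KO libraries lay above both wt libraries for 56 members and below them for 33, while over all genes tested the shares were 33.2% and 34.5% (34.2% and 34.9% of those of at least 5 CPM). Only 8 of the 32 rises were of at least 2-fold (log2 fold changes from 0.37 to 1.90, median 0.70), as were 6 of the 11 falls (-0.65 to -3.46, median -1.17). DESeq2 called 26 members (16 higher, 10 lower), and leaving out wt replicate 4 or KO replicate 2 left 26 or 28. Of the 43 calls, 21 held under every alternative tried. Among the falls only Slc26a2 and Slc6a6 lost their call under some alternative, and every other call lost was a rise. The surplus of rises among the calls thus rests largely on the less stable ones. All but 11 members had a mean of at least 5 CPM in each group. Of those 11, Slc39a1, Slc36a1 and Slc6a8, low in KO, and Slc41a2, low in wt and het, were called. Each of these 4 met the threshold only through the groups where it was high, so its direction was set in part by the rule. Exons of 46 members overlap another gene and 32 members have a near-identical transcript elsewhere (95% identity over 200 bases). For 15 of the 43 called members such a partner is in the table. Their counts are less certain where the partner has reads. Some partners had 0 counts in all 6 libraries, as Gm5475 (Slc11a2), Gm25692 (Slc25a51) and Slc39a1-ps (Slc39a1).

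**Figure D1:**
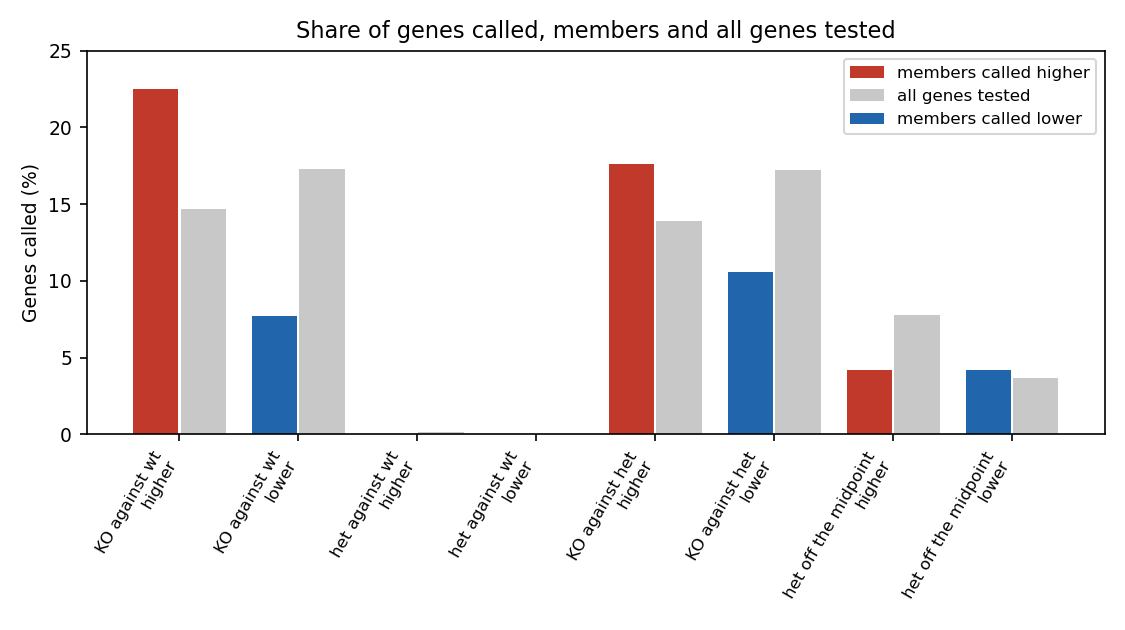
Bars give the percentage of genes called at an adjusted p under 0.05 (edgeR) in each comparison and direction, for the 142 members (red higher, blue lower) and for all 10952 genes tested (grey). In KO against wt the members' bar is above the grey bar for rises, 22.5% against 14.7%, and below it for falls, 7.75% against 17.3%.

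**Figure D2:**
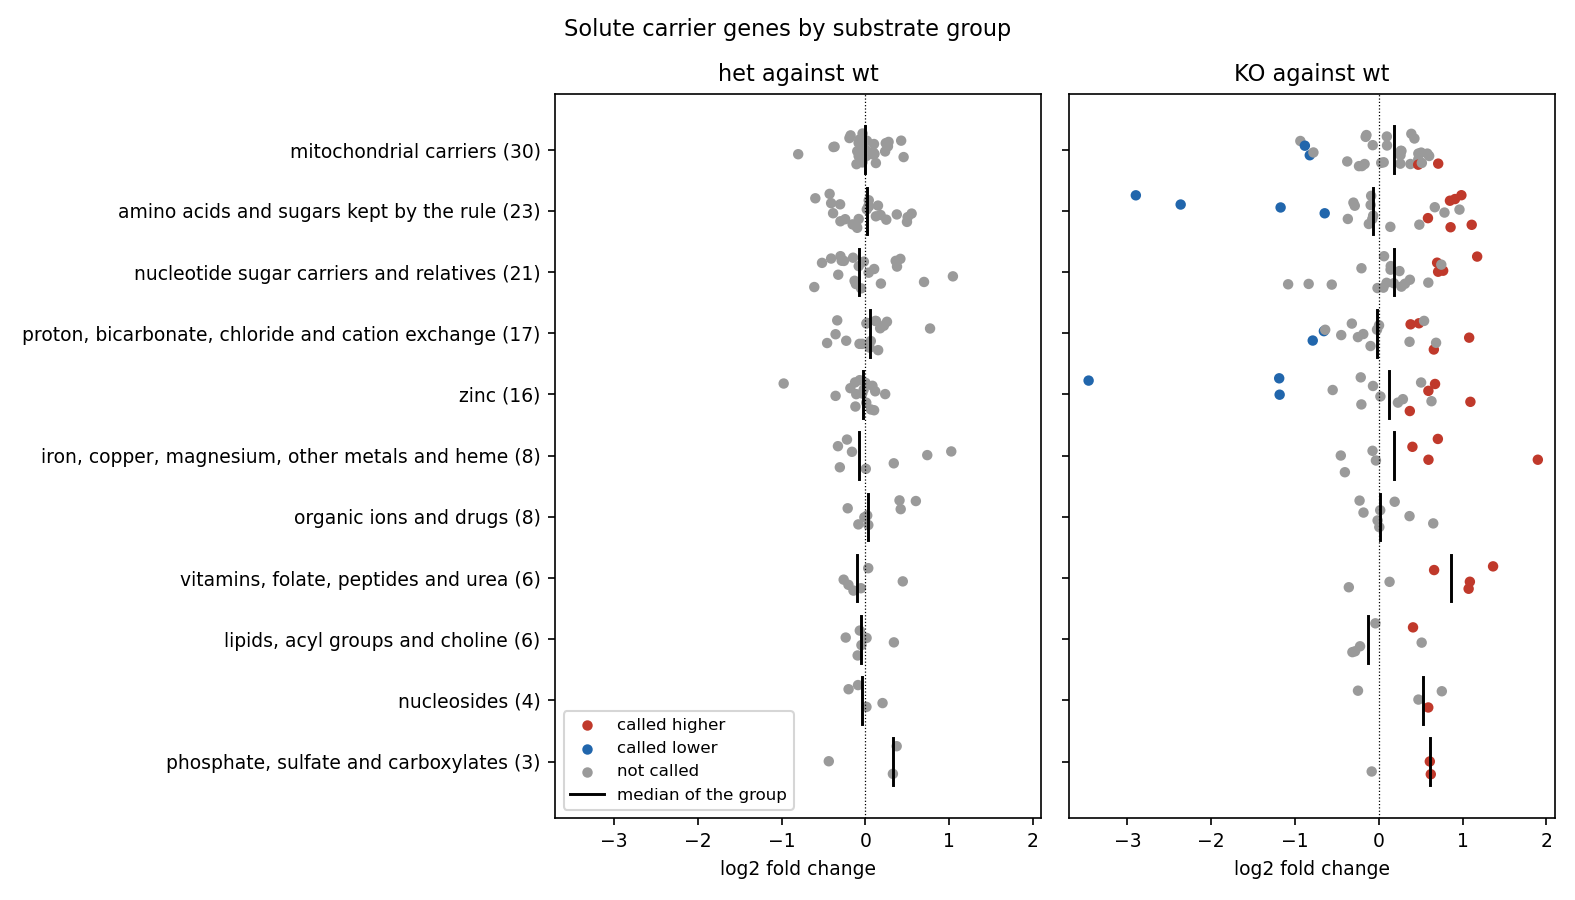
Each point is the log2 fold change of 1 member, in rows by what the carriers move, for het against wt (left) and KO against wt (right). Red and blue points passed the test, grey points did not, and the bar is the median of the row. No point is coloured on the left, and the falls on the right lie in 4 rows: amino acids and sugars, zinc, ion exchange and mitochondrial carriers.

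The largest fall of any member was in a zinc importer. Of the 16 zinc members, 4 rose (Slc30a5, Slc39a7, Slc39a6 and Slc39a10) and 3 fell (Slc39a1, Slc30a1 and Slc30a4) in KO against wt. The group median was 0.12. Among all genes tested 14.7% were called higher and 17.3% lower, so calls in both directions are not particular to zinc carriers. The Slc30 and Slc39 families each held members called in both directions. The promoter windows of the 5 members with the largest changes are printed first, since the metal-responsive factor MTF-1, which senses free zinc, is known to act through metal response elements and Slc30a1 is a known target. Each window runs from 250 bases before the annotated start to 50 after it, 5′ to 3′ on the gene's strand (RefSeq, GRCm38.p6), and capitals mark each match, on either strand, to the core of that element, searched as TGCGCNC or TGCACNC.
Slc30a1: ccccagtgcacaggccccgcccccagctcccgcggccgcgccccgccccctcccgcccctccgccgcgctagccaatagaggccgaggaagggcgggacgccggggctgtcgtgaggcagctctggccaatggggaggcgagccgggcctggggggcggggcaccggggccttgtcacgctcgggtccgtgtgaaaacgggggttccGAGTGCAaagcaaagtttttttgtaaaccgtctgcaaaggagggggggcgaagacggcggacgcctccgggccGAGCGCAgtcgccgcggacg
Slc30a4: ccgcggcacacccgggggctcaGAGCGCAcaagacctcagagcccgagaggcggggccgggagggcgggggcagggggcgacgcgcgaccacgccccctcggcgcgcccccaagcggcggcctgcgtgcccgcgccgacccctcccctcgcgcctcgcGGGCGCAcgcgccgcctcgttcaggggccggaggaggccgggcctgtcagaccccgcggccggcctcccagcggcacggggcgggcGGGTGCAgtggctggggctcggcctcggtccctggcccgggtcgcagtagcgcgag
Slc39a1: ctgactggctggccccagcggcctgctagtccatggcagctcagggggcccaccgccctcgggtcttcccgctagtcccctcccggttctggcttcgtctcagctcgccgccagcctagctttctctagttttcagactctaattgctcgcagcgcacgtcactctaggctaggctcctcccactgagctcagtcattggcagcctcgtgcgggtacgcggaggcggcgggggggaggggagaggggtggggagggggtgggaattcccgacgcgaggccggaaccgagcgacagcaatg
Slc30a5: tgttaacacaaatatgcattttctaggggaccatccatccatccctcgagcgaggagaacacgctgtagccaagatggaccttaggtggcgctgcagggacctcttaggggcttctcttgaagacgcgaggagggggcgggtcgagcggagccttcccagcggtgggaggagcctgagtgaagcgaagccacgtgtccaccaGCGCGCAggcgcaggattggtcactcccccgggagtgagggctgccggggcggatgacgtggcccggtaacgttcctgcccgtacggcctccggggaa
Slc39a7: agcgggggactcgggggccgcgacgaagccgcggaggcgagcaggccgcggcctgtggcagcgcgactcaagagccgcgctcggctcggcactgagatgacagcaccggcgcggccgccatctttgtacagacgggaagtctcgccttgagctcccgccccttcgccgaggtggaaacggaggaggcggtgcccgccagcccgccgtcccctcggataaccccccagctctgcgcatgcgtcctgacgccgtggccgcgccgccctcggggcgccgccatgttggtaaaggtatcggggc
The Slc30a1 window (chr1:191906531-191906830, plus strand) held 2 matches, which begin 43 bases before and 31 bases after the start. The Slc30a4 window (chr2:122702614-122702913, minus strand) held 3, the Slc30a5 window (chr13:100833378-100833677, minus strand) held 1, and those of Slc39a1 (chr3:90247942-90248241, plus strand) and Slc39a7 (chr17:34031641-34031940, minus strand) held 0. Matches to so short a core are common: 25.7% of the 32851 promoter windows held at least 1. Counted by gene, 28.2% of the 27025 genes with a window had a match in any of them, as did 7 of the 14 zinc members with a window and 45.9% of the 111 members with one. A match is letters only and no measured site, and its absence says only that these letters are not in the window.

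Slc39a1 (chromosome 3, positions 90248172 to 90253612 on GRCm38), a zinc importer of the plasma membrane, was at 59.7 and 52.3 CPM in wt, 61.0 and 44.5 CPM in het and 6.21 and 3.72 CPM in KO. The wt and het libraries overlapped, and both KO libraries were far below all 4 of them. The fall was 11.0-fold (log2 fold change -3.46 ± 0.26 SE, adjusted p = 2.33e-09), and it was called under every alternative, with adjusted p up to 1.29e-05. A processed copy in the annotation, Slc39a1-ps, had 0 counts in all 6 libraries. Among the exporters, Slc30a4, which loads zinc into vesicles, was at 57.1 and 51.7 CPM in wt, 54.6 and 61.9 CPM in het and 23.3 and 24.7 CPM in KO (-1.19 ± 0.18 SE in KO against wt, adjusted p = 3.20e-05). Slc30a1, the zinc exporter of the plasma membrane, was at 31.6 and 38.5 CPM in wt, 26.3 and 38.2 CPM in het and 17.3 and 13.0 CPM in KO (-1.18 ± 0.25 SE, adjusted p = 8.85e-04). For both exporters the KO libraries lay below all wt and het libraries. Slc30a4 lies 3.35 Mb from the floxed gene Dll4 on chromosome 2, which carries 15 members in all; a part of linked sequence in its fall was not tested.

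The rises were in carriers of the secretory pathway and in other importers. Slc30a5, which supplies zinc to enzymes of the early secretory pathway, was at 48.2 and 51.7 CPM in wt, 41.9 and 53.2 CPM in het and 113 and 99.0 CPM in KO (1.09 ± 0.16 SE, adjusted p = 2.32e-05). Its partner in the zinc-transporting heterodimer, Slc30a6, was at 20.9 and 22.7 CPM in wt and 20.4 and 20.956 CPM in KO (-0.07 ± 0.26 SE, adjusted p = 0.867). Slc39a7, which releases zinc from the endoplasmic reticulum and Golgi, was at 130 and 108 CPM in wt, 116 and 106 CPM in het and 196 and 186 CPM in KO (0.67 ± 0.12 SE, adjusted p = 2.58e-04). Groups wt and het overlapped for both Slc30a5 and Slc39a7, with KO above them. A gene on the same strand, Gm20427, shares sequence with Slc39a7, which makes the division of reads between them uncertain. Slc39a10, an importer of the plasma membrane, was at 128 and 106 CPM in wt, 126 and 129 CPM in het and 154 and 150 CPM in KO (0.37 ± 0.12 SE, adjusted p = 0.0276). That call was lost without wt replicate 5 (adjusted p = 0.262) and without either KO library (0.119 and 0.0814). Its relative Slc39a6 (0.59 ± 0.20 SE, adjusted p = 0.0285) lost its call without any 1 of the wt or KO libraries, at adjusted p from 0.0635 to 0.125. The other 9 zinc members did not pass the test, with log2 fold changes in KO against wt between -0.55 (Slc39a8) and 0.63 (Slc39a11).

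**Figure D3:**
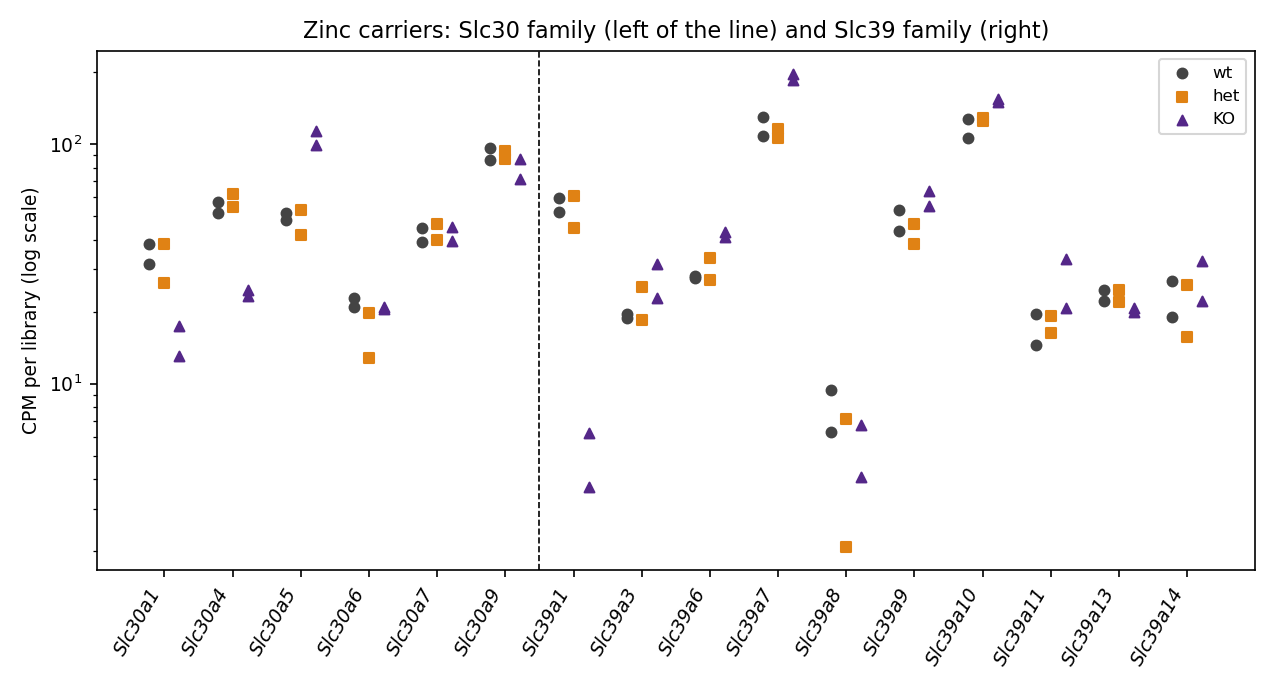
CPM of the 16 zinc members in each library (log scale), the Slc30 family left of the dashed line and the Slc39 family right of it. The KO libraries of Slc39a1 lie at 6.21 and 3.72 CPM against 59.7 and 52.3 CPM in wt, and those of Slc30a5 at 113 and 99.0 CPM against 48.2 and 51.7 CPM.

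The calls among carriers of the other metals were all rises. Of 8 members for iron, copper, magnesium, other metals and heme, 4 rose and 0 fell in KO against wt, with a median of 0.18. Over all genes tested, 14.7% were called higher and 17.3% lower. Both KO libraries lay above both wt libraries for 4 of the members and below them for 2 (33.2% and 34.5% over all genes tested). The heme carrier of the Slc48 family was among those below (-0.40, not called). The magnesium carrier Slc41a2 had the largest fitted log2 fold change among called rises, but it met the threshold of 5 CPM only through its KO libraries, so that it had to be high there. It was at 1.71 and 3.15 CPM in wt, 3.55 and 5.56 CPM in het and 6.47 and 11.2 CPM in KO (1.90 ± 0.58 SE, adjusted p = 0.0148). The 3 groups followed each other without overlap, but the levels were low, and the call was lost without wt replicate 4 (adjusted p = 0.181) or KO replicate 2 (0.176), and with DESeq2 or limma-voom. Slc41a1, a magnesium carrier of the same family, was at 36.7 and 53.0 CPM in wt, 38.3 and 48.3 CPM in het and 63.1 and 69.8 CPM in KO (0.59 ± 0.19 SE, adjusted p = 0.0191), a call lost without wt replicate 4 (0.304) or KO replicate 2 (0.0987). Slc31a1, the copper importer of the plasma membrane, was at 62.7 and 60.5 CPM in wt, 51.8 and 48.7 CPM in het and 82.0 and 81.0 CPM in KO (0.40 ± 0.15 SE, adjusted p = 0.0453). Both het libraries lay below wt and both KO libraries above it. Its call against wt was lost without any 1 of the wt or KO libraries (adjusted p from 0.118 to 0.174), while its difference between KO and het (0.71 ± 0.15 SE, adjusted p = 0.00130) held under every alternative. Slc31a2, its intracellular relative, was at 58.0 and 66.2 CPM in wt and 53.2 and 67.8 CPM in KO, with the groups overlapping. The iron importer Slc11a2 was at 14.5004 and 14.5005 CPM in wt, 21.3 and 16.3 CPM in het and 24.5 and 22.8 CPM in KO (0.70 ± 0.26 SE, adjusted p = 0.0443). That call was also lost without any 1 of the wt or KO libraries, at adjusted p from 0.0959 to 0.174. The iron exporter Slc40a1 was at 11.5 and 6.30 CPM in wt, 19.2 and 12.5 CPM in het and 9.44 and 7.94 CPM in KO, with wt and KO overlapping.

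Among the 6 carriers of vitamins, folate, peptides and urea, 4 rose and 0 fell in KO against wt, with a group median of 0.87. For comparison, 14.7% of all genes tested were called higher and 17.3% lower. Slc46a3, a lysosomal carrier, was at 7.25 and 9.46 CPM in wt, 9.22 and 12.5 CPM in het and 19.8 and 22.6 CPM in KO (1.36 ± 0.32 SE, adjusted p = 0.00218, lost without wt replicate 4 at 0.061). Slc19a1, the reduced folate carrier, was at 8.10 and 11.3 CPM in wt, 7.10 and 9.04 CPM in het and 18.1 and 22.1 CPM in KO (1.07 ± 0.32 SE, adjusted p = 0.0130). Its call was lost without wt replicate 4 (0.174) or KO replicate 2 (0.118). Slc19a2, the thiamine carrier of the same family, was at 6.82 and 7.57 CPM in wt, 9.93 and 3.48 CPM in het and 17.3 and 13.0 CPM in KO (1.09 ± 0.41 SE, adjusted p = 0.0472). In both genes the KO libraries lay above all others, but the call on Slc19a2 was lost without any 1 of the wt or KO libraries (adjusted p from 0.0646 to 0.27). Slc15a4, a lysosomal carrier of histidine and peptides, rose from 19.2 and 15.1 CPM in wt to 28.7 and 26.2 CPM in KO (0.66 ± 0.24 SE, adjusted p = 0.0443), and lost its call in the same way (0.0798 to 0.248). Slc23a2, the ascorbate carrier, was at 102 and 89.5 CPM in wt and 77.2 and 72.3 CPM in KO (-0.36 ± 0.14 SE, adjusted p = 0.0577).

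The sodium-phosphate carriers Slc20a1 and Slc20a2, known also as receptors of retroviruses, both rose. Slc20a1 was at 77.2 and 85.7 CPM in wt, 97.9 and 111 CPM in het and 126 and 124 CPM in KO (0.62 ± 0.13 SE, adjusted p = 0.00120, called under every alternative). Slc20a2 was at 21.3 and 23.3 CPM in wt, 24.1 and 30.6 CPM in het and 34.2 and 33.6 CPM in KO (0.61 ± 0.22 SE, adjusted p = 0.0413, lost without any 1 of the wt or KO libraries at 0.0966 to 0.205). In both genes the het libraries lay between wt and KO without overlap. An exon of Slc20a2 overlaps Smim19, which was at 20.9 and 27.7 CPM in wt and 12.9 and 13.2 CPM in KO. The counts of Slc20a2 are therefore less certain. Of the 4 nucleoside carriers, Slc29a1 alone was called in KO against wt, and it rose (14.7% of all genes tested were called higher). This equilibrative carrier of the plasma membrane, which takes up adenosine, was at 273 and 281 CPM in wt, 275 and 283 CPM in het and 397 and 437 CPM in KO (0.59 ± 0.10 SE, adjusted p = 9.58e-05), with wt and het overlapping and KO above both. At 69.0 CPM per kilobase of exon in wt it was the fifth of all members by length-scaled level, and its call held under every alternative. Slc29a4, a carrier of monoamines, was at 9.38 and 10.1 CPM in wt and 16.9 and 9.80 CPM in KO, with the groups overlapping.

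The group of proton, bicarbonate, chloride and cation exchange had calls in both directions, but 1 of its 2 falls was in a scaffold. Of 17 members in this group, among them the 3 that are not carriers, 4 rose and 2 fell in KO against wt, and the median was -0.02. All genes tested had 14.7% called higher and 17.3% lower. The cation-chloride cotransporters of the Slc12 family, which set cell volume and chloride, held 3 of the rises among 5 members. Slc12a7 was at 10.7 and 5.04 CPM in wt, 4.26 and 10.1 CPM in het and 18.2 and 16.4 CPM in KO (1.08 ± 0.38 SE, adjusted p = 0.0346), a call lost without wt replicate 5 (0.301) and without either KO library (0.146 and 0.0814). Slc12a4 was at 41.4 and 45.4 CPM in wt, 41.2 and 42.8 CPM in het and 72.5 and 63.5 CPM in KO (0.66 ± 0.17 SE, adjusted p = 0.00481), lost without wt replicate 4 (0.0714) or KO replicate 1 (0.0528). Slc12a2, which brings sodium, potassium and chloride in, was at 170 and 142 CPM in wt, 168 and 149 CPM in het and 224 and 182 CPM in KO (0.38 ± 0.13 SE, adjusted p = 0.0276), lost without wt replicate 5 (0.268) or KO replicate 1 (0.33). The anion exchanger Slc4a2 rose from 40.9 and 41.6 CPM in wt to 57.7 and 57.3 CPM in KO (0.48 ± 0.17 SE, adjusted p = 0.0397), but lost its call without any 1 of the wt or KO libraries (0.103 to 0.162). Its exons overlap those of Fastk on the opposite strand, so part of its counts is uncertain. The falls were in a scaffold and a sulfate carrier. Slc9a3r2, the scaffold named above, was at 409 and 414 CPM in wt, 342 and 359 CPM in het and 261 and 215 CPM in KO (-0.79 ± 0.11 SE, adjusted p = 7.71e-06), with the 3 groups in descending order and no overlap. Slc26a2, a sulfate carrier needed for sulfated proteoglycans, was at 52.0 and 39.7 CPM in wt, 37.6 and 36.2 CPM in het and 31.1 and 27.7 CPM in KO (-0.66 ± 0.19 SE, adjusted p = 0.0131). Its fall was lost without wt replicate 4 (0.338) or KO replicate 2 (0.0829), and under DESeq2 or scaling by library size alone.

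**Figure D4:**
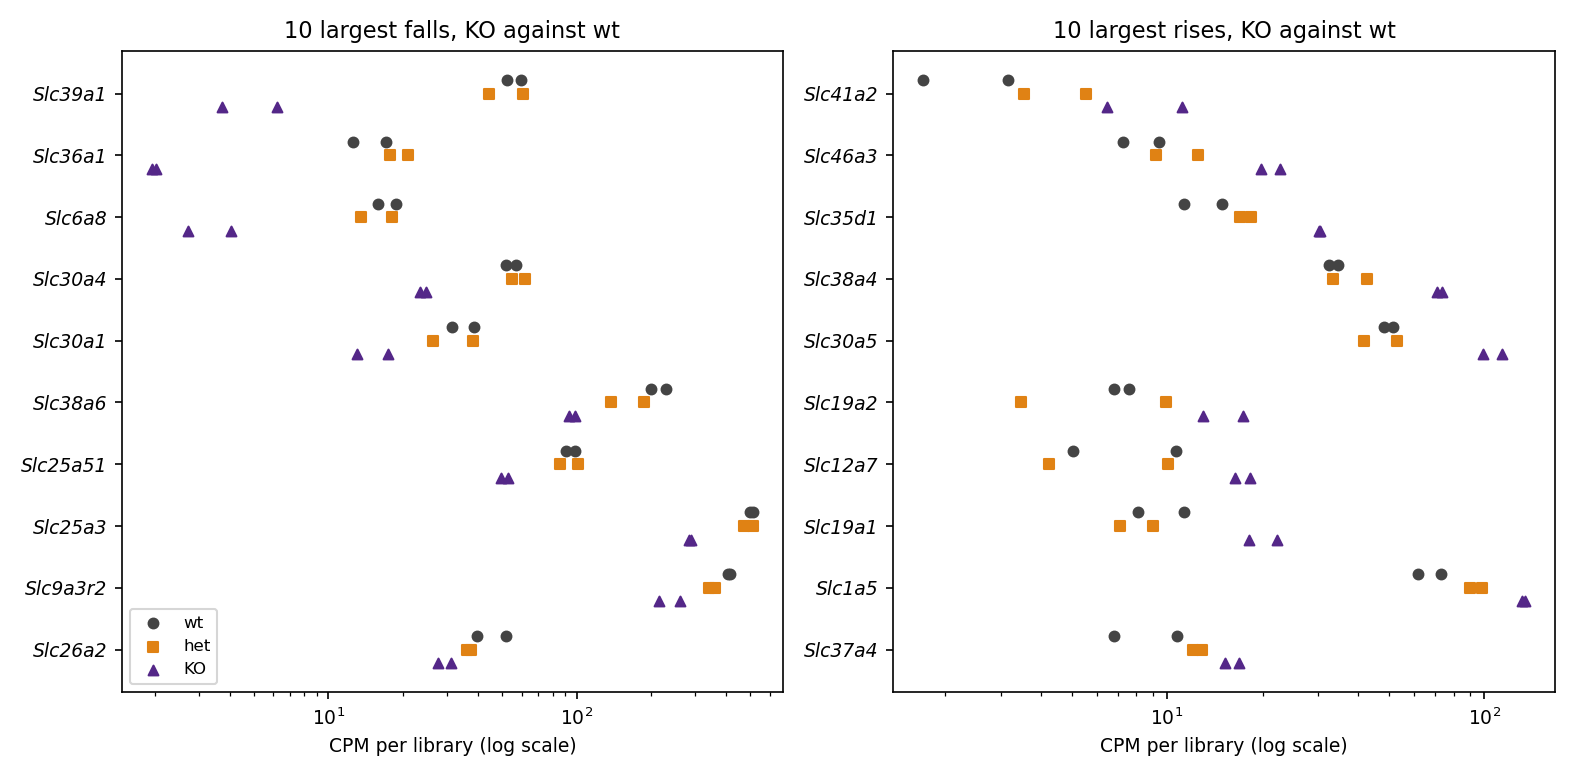
CPM in each library (log scale) of the 10 members with the largest falls (left) and the 10 with the largest rises (right) among those called in KO against wt, with circles for wt, squares for het and triangles for KO. The KO libraries lie apart from both wt libraries in every row, as at Slc36a1 with 1.94 and 2.03 CPM against 17.1 and 12.6 CPM, while wt and het overlap in many rows.

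In the secretory pathway, 4 of 21 members of the Slc35 family rose in KO against wt and 0 fell, with a median of 0.18. The background was 14.7% called higher and 17.3% lower over all genes tested. Both KO libraries lay above both wt libraries for 7 members and below them for 4 (33.2% and 34.5% over all genes tested). Slc35d2 was called lower in KO against het (edgeR adjusted p = 0.0282), a call lost with DESeq2. Slc35d1 brings UDP-glucuronic acid and UDP-N-acetylgalactosamine into the endoplasmic reticulum, substrates of chondroitin sulfate. It was at 14.9 and 11.3 CPM in wt, 17.0 and 18.4 CPM in het and 30.3 and 30.1 CPM in KO (1.17 ± 0.25 SE, adjusted p = 0.00117), with the groups in rising order and no overlap. Slc35a3, a carrier of UDP-N-acetylglucosamine in the Golgi, was at 37.1 and 39.7 CPM in wt, 27.7 and 40.7 CPM in het and 69.2 and 61.0 CPM in KO (0.77 ± 0.19 SE, adjusted p = 0.00340, lost without wt replicate 4 at 0.061). Slc35a4, a Golgi protein of that subfamily, was at 121 and 125 CPM in wt, 123 and 129 CPM in het and 205 and 193 CPM in KO (0.70 ± 0.12 SE, adjusted p = 8.96e-05). Slc35e1, which has no firmly assigned substrate, was at 102 and 86.4 CPM in wt, 74.5 and 96.3 CPM in het and 156 and 154 CPM in KO (0.71 ± 0.14 SE, adjusted p = 4.98e-04). In Slc35a3, Slc35a4 and Slc35e1 the het and wt libraries overlapped and both KO libraries lay above them. Slc35c1, the Golgi carrier of GDP-fucose, whose sugar is added to Notch receptors, was at 17.1 and 17.0 CPM in wt, 9.93 and 19.1 CPM in het and 16.4 and 21.3 CPM in KO (0.14 ± 0.30 SE, adjusted p = 0.761), with overlapping groups. The carriers of CMP-sialic acid, Slc35a1, and of UDP-galactose, Slc35a2, did not pass the test either (0.27 and 0.06 on the log2 scale).

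Mitochondrial carriers were the largest family, with 30 members, and had the fewest calls for their number among the larger groups. In KO against wt, 2 rose and 2 fell, with a median of 0.18, where 14.7% of all genes tested were called higher and 17.3% lower. They also held 5 of the 7 members with the highest length-scaled levels. In CPM per kilobase of exon over the wt libraries, the order was Slc25a5 (381), Slc9a3r2 (155), Slc25a4 (141), Slc25a3 (91.1), Slc29a1 (69.0), Slc25a39 (64.8) and Slc25a11 (53.0). The ADP/ATP exchangers Slc25a5 and Slc25a4 did not pass the test. Slc25a5 was at 600 and 656 CPM in wt, 585 and 581 CPM in het and 581 and 612 CPM in KO (-0.07 ± 0.09 SE, adjusted p = 0.588), with wt and KO overlapping. Slc25a4 was at 339 and 325 CPM in wt, 334 and 339 CPM in het and 345 and 366 CPM in KO (0.10 ± 0.10 SE, adjusted p = 0.473). On scaling by library size alone Slc25a5 would be called higher in KO (0.29, adjusted p = 0.0138), as the median of all genes then moves from -0.02 to 0.35, so directions are relative to the scaling.

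Both falls in the mitochondrial family were in the phosphate carrier and the NAD+ carrier. Slc25a3 (chromosome 10, positions 91116574 to 91124059), which brings in the phosphate for ATP synthesis, was at 498 and 513 CPM in wt, 470 and 513 CPM in het and 288 and 283 CPM in KO (-0.82 ± 0.09 SE, adjusted p = 9.95e-07). Slc25a51, the carrier of NAD+ into the matrix, was at 90.4 and 98.4 CPM in wt, 85.9 and 102 CPM in het and 49.4 and 52.7 CPM in KO (-0.88 ± 0.15 SE, adjusted p = 9.76e-05). For both, wt and het overlapped and KO lay far below them, and both falls held under every alternative. The rises were in Slc25a24 and Slc25a25, calcium-regulated carriers that exchange ATP-magnesium for phosphate. Slc25a25 was at 73.4 and 67.5 CPM in wt, 94.4 and 74.7 CPM in het and 106 and 125 CPM in KO (0.71 ± 0.15 SE, adjusted p = 0.00107); an exon of it overlaps Naif1, so its counts are less certain. Slc25a24 was at 85.7 and 76.9 CPM in wt, 95.8 and 80.0 CPM in het and 115 and 111 CPM in KO (0.47 ± 0.14 SE, adjusted p = 0.0133, lost without wt replicate 5 at 0.123 or KO replicate 1 at 0.0705). The mitochondrial iron importers Slc25a37 and Slc25a28 had KO libraries below both wt libraries (log2 fold changes -0.78 ± 0.32 SE and -0.94 ± 0.37 SE) and did not pass the test against wt (adjusted p = 0.0682 and 0.0594). Slc25a28 was called lower in KO against het (edgeR adjusted p = 0.0308), a call lost with DESeq2.

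**Figure D5:**
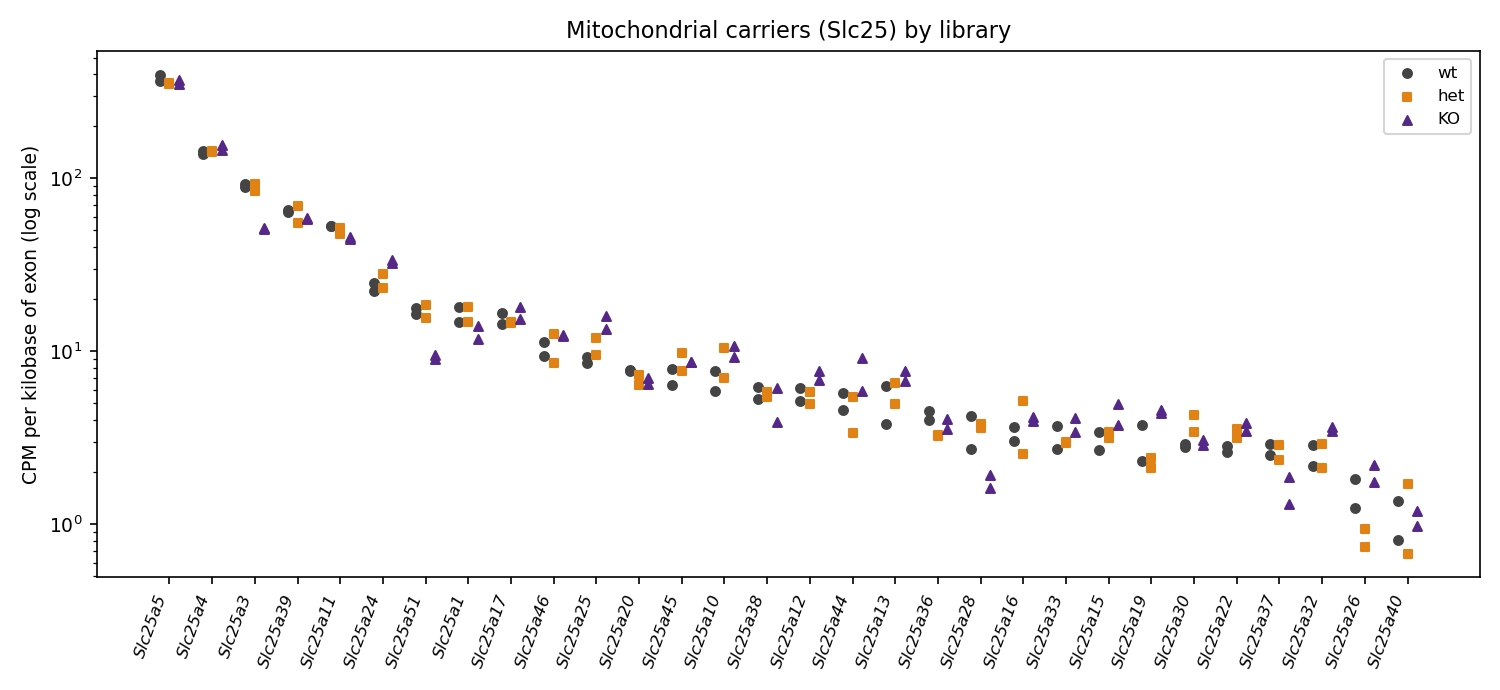
CPM per kilobase of exon (log scale) of the 30 mitochondrial carriers in each library, ordered by the wt mean. The levels span from 381 for Slc25a5 in wt down to 1.08 for Slc25a40, and the KO libraries fall clear below wt and het for Slc25a3 and Slc25a51.

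The 23 amino acid and sugar carriers that the rule keeps had 6 rises and 4 falls in KO against wt and a median of -0.07. The shares over all genes tested were 14.7% higher and 17.3% lower. Of the 4 falls, 3 were among the 6 largest of all members. Slc36a1 (chromosome 11, positions 55204350 to 55236330), a proton-coupled amino acid exporter of the lysosome, was at 17.1 and 12.6 CPM in wt, 17.7 and 20.9 CPM in het and 1.94 and 2.03 CPM in KO (7.46-fold lower, -2.90 ± 0.41 SE, adjusted p = 1.33e-05). Slc6a8 (chromosome X, positions 73673150 to 73682502), the creatine carrier, was at 18.8 and 15.8 CPM in wt, 13.48 and 18.1 CPM in het and 2.72 and 4.06 CPM in KO (5.15-fold lower, -2.37 ± 0.38 SE, adjusted p = 6.87e-05). In both genes the KO libraries lay far under all 4 wt and het libraries. Both genes met the threshold of 5 CPM only through wt and het, so that they had to be higher there. The wt and het libraries overlapped for Slc6a8, while for Slc36a1 both het libraries lay above both wt libraries. Both were called under every alternative. Slc6a6, the taurine carrier of the same family as Slc6a8, was at 318 and 274 CPM in wt, 237 and 264 CPM in het and 208 and 171 CPM in KO (-0.65 ± 0.12 SE, adjusted p = 1.99e-04), with no overlap between groups. Its fall was called under every alternative except scaling by library size alone. Slc38a6 was at 230 and 199 CPM in wt, 138 and 187 CPM in het and 92.8 and 98.0 CPM in KO (-1.17 ± 0.13 SE, adjusted p = 1.28e-06), but its longest transcript matches those of 37 other annotated genes at 95% identity over 200 bases or more, so its value is uncertain.

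The rises in this group were mostly in carriers of neutral amino acids. Slc1a5, which exchanges glutamine and other neutral amino acids, was at 61.8 and 73.1 CPM in wt, 90.1 and 98.0 CPM in het and 134 and 131 CPM in KO (0.99 ± 0.14 SE, adjusted p = 1.43e-05), the groups rising in order without overlap. Slc38a4, a system A carrier, was at 32.4 and 34.7 CPM in wt, 42.6 and 33.4 CPM in het and 70.8 and 73.5 CPM in KO (1.11 ± 0.18 SE, adjusted p = 6.62e-05). Slc38a10 was at 152 and 137 CPM in wt, 148 and 149 CPM in het and 271 and 253 CPM in KO (0.86 ± 0.11 SE, adjusted p = 5.27e-06). For Slc38a4 and Slc38a10 the wt and het libraries overlapped below KO. Their relative Slc38a2, which cells raise when short of amino acids, was at 229 and 241 CPM in wt and 235 and 197 CPM in KO, with overlap (-0.12 ± 0.11 SE, adjusted p = 0.454). In KO against het Slc38a2 was called lower (edgeR adjusted p = 0.0453), a call lost with DESeq2 and limma-voom. Slc37a4, which takes glucose-6-phosphate into the endoplasmic reticulum, was at 6.82 and 10.7 CPM in wt, 12.1 and 12.9 CPM in het and 15.3 and 16.9 CPM in KO (0.91 ± 0.33 SE, adjusted p = 0.0421), a call lost without any 1 of the wt or KO libraries (0.051 to 0.345). Slc36a4 rose (0.85 ± 0.18 SE, adjusted p = 8.66e-04), opposite to Slc36a1 of its family, as did Slc43a1 (0.59 ± 0.19 SE, adjusted p = 0.0227, lost without wt replicate 4 at 0.248 or KO replicate 2 at 0.133).

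Carriers of lipids and drugs had few calls. Of 6 members for lipids, acyl groups and choline, 1 rose and 0 fell in KO against wt, and of 8 for organic ions and drugs, 0 were called. The share called over all genes tested was 14.7% higher and 17.3% lower. Slc44a2, a choline carrier, was at 139 and 160 CPM in wt, 137 and 161 CPM in het and 212 and 183 CPM in KO (0.41 ± 0.12 SE, adjusted p = 0.0157, lost without wt replicate 4 at 0.168 or KO replicate 1 at 0.181). Slc44a1, a choline carrier of the same family, was at 91.3 and 71.2 CPM in wt and 68.2 and 72.3 CPM in KO, with overlap (-0.22 ± 0.15 SE, adjusted p = 0.288). Slc22a15 was at 10.2 and 9.46 CPM in wt and 15.5 CPM in both KO libraries, without passing the test (0.65 ± 0.34 SE, adjusted p = 0.151). Slc22a23 was at 18.3 and 22.7 CPM in wt, 34.1 and 22.2 CPM in het and 33.0 and 12.7 CPM in KO, its KO libraries on either side of wt. Slc10a7, with 29.4 and 22.7 CPM in wt and 24.6 and 21.8 CPM in KO, also overlapped. Slc22a5, the carnitine carrier, was at 14.9 and 15.8 CPM in wt and 14.9 and 15.9 CPM in KO (0.01 ± 0.28 SE), a difference within the spread.

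Loss of 1 Dll4 allele changed 0 members in het against wt by edgeR, where 0.173% of all genes tested were called (0.128% higher, 0.0457% lower). Among genes of at least 5 CPM these shares were 0.188%, 0.139% and 0.0496%. At an unadjusted p under 0.05 there were 5 members, and DESeq2 and limma-voom also called 0. The smallest adjusted p, 0.262, was that of Slc1a5 (0.50 ± 0.15 SE), whose het libraries lay above both wt libraries, as did those of Slc20a1 (0.37 ± 0.14 SE, adjusted p = 0.44). Both het libraries were above both wt libraries for 20 members and below for 22, against 19.2% and 18.8% of all genes tested (18.9% and 19.3% of those of at least 5 CPM). The median SE of a member's log2 fold change was 0.28 here, so that small changes in single members were not detectable with these libraries. Among the 36 members with a mean of at least 50 CPM, no het-against-wt estimate exceeded 0.50 in size.

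Loss of the remaining allele, KO against het, gave 25 members called higher and 15 lower, 28.2% together against 31.2% of all genes tested (17.6% against 13.9% higher, 10.6% against 17.2% lower). Of the genes of at least 5 CPM, 32.6% were called (14.9% higher, 17.6% lower). The comparison shares its KO libraries with KO against wt, so the 2 are not independent. Both KO libraries lay above both het libraries for 63 members and below for 29, where the shares over all genes tested were 31.5% and 33% (32.6% and 33% at 5 CPM or more). The largest fall was again in Slc39a1 (-3.34 ± 0.26 SE, adjusted p = 4.70e-09), followed by Slc36a1 (-3.28 ± 0.40 SE, adjusted p = 2.24e-06) and Slc6a8 (-2.25 ± 0.38 SE, adjusted p = 1.22e-04). The most significant rises by adjusted p were in Slc38a10 (0.82 ± 0.11 SE, adjusted p = 8.58e-06), Slc30a5 (1.13 ± 0.16 SE, adjusted p = 1.58e-05) and Slc39a7 (0.79 ± 0.12 SE, adjusted p = 5.35e-05). All 6 held under every alternative, but the count fell to 22 with DESeq2 and to 25 without KO replicate 2.

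For 12 members, het lay off the midpoint of wt and KO on the log2 scale, where 11.5% of all genes tested did so (7.81% above and 3.68% below). Among genes of at least 5 CPM it was 12.1% (8.09% above and 3.98% below). The 6 members with het above the midpoint were all falls in KO against wt, and the 6 with het below it were all rises, so in each of them het lay nearer to wt than to KO. Slc36a1 was furthest off (1.83 ± 0.32 SE, adjusted p = 5.21e-04), then Slc39a1 (1.61 ± 0.21 SE, adjusted p = 1.77e-05), and these 2 were called under every alternative. The others above the midpoint were Slc6a8 (1.07), Slc30a4 (0.70), Slc25a51 (0.45) and Slc25a3 (0.38). Below it were Slc30a5 (-0.58), Slc31a1 (-0.50), Slc35e1 (-0.48), Slc39a7 (-0.45), Slc38a10 (-0.39) and Slc29a1 (-0.28). Each of these 10 lost its call under at least 1 alternative, and the count fell to 5 without wt replicate 4, to 7 without wt replicate 5, to 7 without het replicate 2, to 5 without het replicate 3 and to 5 with DESeq2. Without het replicate 3 the adjusted p was 0.309 for Slc6a8, 0.107 for Slc30a4, 0.314 for Slc25a51, 0.0713 for Slc25a3, 0.0702 for Slc38a10, 0.12 for Slc39a7, 0.164 for Slc31a1 and 0.109 for Slc29a1. Without het replicate 2 it was 0.134 for Slc30a5 and 0.179 for Slc35e1. Slc1a5 stood at the midpoint (0.00, adjusted p = 0.988).

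Among transporters outside the Slc symbols, no list was called in 1 direction only. Over all genes tested, 14.7% were called higher and 17.3% lower in KO against wt (32% in either direction), so calls in both directions are not particular to these lists. Of 20 SLC proteins that carry other symbols, 1 rose and 3 fell in KO against wt, with a median of -0.10. Npc1, which exports cholesterol from the lysosome, was at 36.3 and 29.6 CPM in wt, 27.7 and 30.2 CPM in het and 12.2 and 9.13 CPM in KO (-1.63 ± 0.25 SE, adjusted p = 3.60e-05), and Sfxn3, of the mitochondrial sideroflexins, at 43.9 and 53.0 CPM against 19.9 and 20.8 CPM (-1.24 ± 0.20 SE, adjusted p = 5.63e-05). In both, the KO libraries lay below wt without overlap. The 12 P-type ATPases had 3 rises and 4 falls (median 0.02), with the smallest adjusted p for the fall of Atp13a3, a polyamine carrier of endosomes (-1.46 ± 0.15 SE, adjusted p = 3.33e-07), while Atp2a2, the calcium pump of the endoplasmic reticulum, rose (0.59 ± 0.11 SE, adjusted p = 2.46e-04). Of the 16 V-type ATPase subunits, which acidify lysosomes, 2 rose and 4 fell (median -0.28), with falls in Atp6v0d1 (-1.02 ± 0.16 SE, adjusted p = 4.06e-05) and Atp6v0c (-0.55 ± 0.10 SE, adjusted p = 3.42e-04). The 19 ABC transporters had 4 rises and 4 falls (median -0.19), the falls including the cholesterol exporters Abca1 (-1.36 ± 0.15 SE, adjusted p = 9.31e-07) and Abcg1 (-1.37 ± 0.17 SE, adjusted p = 3.12e-06). Of 10 genes of iron and zinc handling, 2 rose and 2 fell (median 0.03). Aco1, an iron-regulatory protein, rose (0.57 ± 0.18 SE, adjusted p = 0.0164). Tfrc, the transferrin receptor gene, was at 11.5 and 12.0 CPM in wt and 18.5 and 22.5 CPM in KO (0.80 ± 0.28 SE, adjusted p = 0.0359), while the ferritin gene Ftl1 fell (-0.54 ± 0.10 SE, adjusted p = 1.54e-04). Mt1, a zinc-binding metallothionein and MTF-1 target, was at 1.71 and 1.89 CPM in wt, 8.51 and 2.78 CPM in het and 4.66 and 6.08 CPM in KO, and did not pass the test (1.56 ± 0.69 SE, adjusted p = 0.0916). Mtf1 itself was at 20.0 and 19.5 CPM in wt and 18.9 and 14.4 CPM in KO (-0.25 ± 0.26 SE, adjusted p = 0.516). No gene of these lists was called in het against wt.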

How the data were processed

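RNA of sorted endothelial cells was made into libraries with a SMART-Seq v4 and Nextera XT workflow, per the labels' protocols, which does not mark strand, so overlapping genes cannot be told apart by strand. The authors deposited expected counts per gene, unnormalised, in 1 table of 6 libraries. CASAVA, cutadapt, RSEM and GRCm38 are named in the submitters' processing notes, without versions or order, and the table carries the name of Ensembl release 76. Of its identifiers, 97.88% matched a gene symbol. Expected counts were rounded to whole numbers and fitted with edgeR 4.0.16 in R 4.3.3 (TMM, filterByExpr with a minimum count of 10, robust quasi-likelihood F test, 3 residual degrees of freedom). All 10952 genes that passed the filter were tested in 1 fit of the 3 groups, two-sided, with Benjamini-Hochberg adjustment, and called at an adjusted p under 0.05. CPM used TMM-scaled library sizes. Levels of different genes were compared only as CPM per kilobase of merged exons. Alternatives used DESeq2 1.42.0, limma-voom (limma 3.58.1), other scalings and filters, GC and length trends, 2-group fits and each library left out. Promoter windows came from RefSeq.

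Members and lists were chosen with earlier results of these data known. The text names the 10 largest called rises and falls in KO against wt, up to 10 called members by adjusted p in each other comparison, the member of each group with the smallest adjusted p and its 2 most abundant, those nearest 5 CPM, and up to 2 genes of each other list. Other genes named were chosen after their values were seen. A few genes are not reported here by name.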

Additional observations from a re-analysis of the deposited data

How the results depend on the processing

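With 2 libraries in each group, small changes in low members were out of reach, and leaving out a library leaves a lone sample that is assumed to vary like the other groups. In KO against wt, where 43 members were called (74.4% of them higher), scaling by library size alone gave 67 (58 higher, 9 lower, 86.6% higher) and DESeq2 gave 26 (16 higher, 10 lower, 61.5% higher). Removing a length trend gave 61.9% higher, leaving out wt replicate 4 gave 61.5%, leaving out wt replicate 5 gave 62.5%, and leaving out KO replicate 2 gave 28 calls. Leaving out each library in turn gave 26 to 46 members. In KO against het, with 40 (62.5% higher), the same settings gave 73 (65 higher, 8 lower, 89% higher) by library size alone and 22 (13 higher, 9 lower) by DESeq2, and 25 to 38 with a library left out. Off the midpoint, with 12 (50% above), they gave 22 (3 above, 19 below), 5 (3 above, 2 below) and 5 to 11. Scaling by library size alone moves the median of all genes in KO against wt from -0.02 to 0.35, and under it 3 values changed sign: Slc25a5 in KO against wt to 0.29 (adjusted p = 0.0138), and, in KO against het, Slc38a2 to 0.0791 (adjusted p = 0.592) and Slc43a3 to 0.06013 (adjusted p = 0.712). For the other settings the cause was not tested. Of 1547 values of named members under the alternatives, 1318 kept their direction and side of the threshold, 220 fell below it, 6 rose above it and 3 changed sign. The count of 0 in het against wt held under every alternative. The rule gave 179 members at 1 CPM, 120 at 10 CPM, 142 with column totals and 119 without the amino acid and sugar families. No paired analysis was possible because the groups share fewer than 2 replicate numbers in the labels.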
